A study of Saccharomyces cerevisiae with 12 samples.

Results

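The enzymes described here build and lengthen saturated fatty acids in the yeast Saccharomyces cerevisiae and activate fatty acids that are already made. They are ACC1 (YNR016C), FAS1 (YKL182W), FAS2 (YPL231W), ELO1 (YJL196C), ELO2 (YCR034W), ELO3 (YLR372W), FAA1 (YOR317W) and FAA4 (YMR246W), 8 of the 6150 open reading frames (ORFs) in the table, picked by pathway with earlier results of these data known. A value on all 12 arrays was present for 7 of them, which were tested together with every other ORF of that kind, 5672 in all. FAA4 had a value on 1 array only, 0.00 for CO at 45 min, so it could not be tested.

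Cells of strain BY4741, a haploid laboratory strain that lacks all or part of HIS3, LEU2, MET17 and URA3, were grown on glucose and placed, on nylon membranes, on a solid medium with acetate. They were then held in pure N2 or pure CO for 15, 30, 45, 60 or 120 min or for 24 h, and cells kept in air for the same time were the reference. Each of the 12 arrays compared the gas (Cy5) with air (Cy3), with 1 array per gas and time, no repeat of any array and no exchange of the dyes. Values are log2 ratios of gas over air, so that 1 means 2 times the signal in air, 0 no difference and a negative value less signal than in air. The direction follows from the dyes and base 2 from the range of the values; the sources used here state neither.

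Acetyl-CoA carboxylase, the product of ACC1, carries biotin and makes malonyl-CoA, the building block of every later step. Fatty acid synthase, formed by the beta subunit from FAS1 and the alpha subunit from FAS2, joins these blocks into saturated long chains, and the elongases of the endoplasmic reticulum extend them. None of these reactions uses oxygen, whereas the desaturase Ole1 does, so yeast without oxygen can make saturated chains but needs unsaturated ones from outside. In yeast the activators Ino2 and Ino4 act on ACC1, FAS1 and FAS2 together with phospholipid genes.

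Between 5843 and 6056 ORFs had a value on an array. The median log2 ratio of an array lay between -0.18 and 0.01. The SD of the ratios over all ORFs was 0.357 (CO) and 0.374 (N2) at 15 min and 1.2 (CO) and 1.27 (N2) at 24 h, so a given log2 ratio stands further out on an early array than on a late one. The 4 genes missing from the strain gave log2 ratios of -0.91 to 0.67 with an SD of 0.317 over 48 values, and none of them was called in any comparison. Every test below treats the different times of a gas as its samples, so a p-value sets a shift against array-to-array spread, and the spread between cultures was not measured. Array signals stand for RNA amounts relative to total RNA, and a change in RNA per cell cannot be told apart from a change in the mix of cells. No source used here gives the probes, and signal shared between close relatives (ELO1, ELO2 and ELO3, or ACC1 and its mitochondrial counterpart HFA1) was not tested.

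ACC1, which catalyses the committed step, had its highest N2 ratios at the late times, and in CO it lay below air on every array before 24 h. In N2 its log2 ratio was -0.12 at 15 min, -0.21 at 30 min, 0.31 at 45 min, 0.48 at 60 min, 1.11 at 120 min and 1.31 at 24 h. In CO it was -0.56, -0.40, -0.56, -0.49, -0.02 and 0.52 at the same times. The CO value lay below the N2 value of the same time at all 6 times, although the ranges of the 2 gases overlapped. The CO value of 15 min was at percentile 3.67 of its array, and the N2 value of 120 min at percentile 92.9 of its own, where it stood for 2.16 times the signal in air.

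The subunits of fatty acid synthase did not run in parallel. FAS1, which encodes the beta subunit, had log2 ratios in N2 of -0.10, 0.11, 1.00, 0.52, 0.60 and -0.47 from 15 min to 24 h, with its highest value at 45 min. In CO its ratios were -0.23, -0.09, -0.24, -0.01, 0.21 and -1.50, the last being 0.354 times the signal in air. FAS1 was thus lowest at 24 h in both gases, and CO lay below N2 at every time. FAS2, which encodes the alpha subunit with the acyl carrier domain, had ratios in N2 of 0.23, 0.35, 0.35, 0.18, 1.80 and 0.59, and in CO of 0.01, 0.22, 0.06, 0.36, 1.25 and 0.75. All 12 FAS2 ratios were above 0, and the highest of each gas was that of 120 min, 3.48 times the signal in air for N2 and 2.38 times for CO. On 10 of the 12 arrays FAS2 had the higher ratio of the pair, and on 2, N2 at 45 and 60 min, FAS1 had it. FAS2 minus FAS1 was 0.24 to 0.37 in CO from 15 to 60 min, 1.04 at 120 min and 2.25 at 24 h; in N2 it was -0.65 at 45 min, 1.20 at 120 min and 1.06 at 24 h. These differences of log2 ratios describe unequal change of the subunits against air and not their relative amounts, and no test was made of them.

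The elongases showed their largest values at 24 h in N2. ELO1, whose enzyme lengthens medium-length chains, had log2 ratios in N2 of -0.12, 0.34, 0.08, 0.28, -0.12 and 0.86, and in CO of 0.43, 0.18, -0.24, 0.04, -0.42 and 0.21. ELO2, whose enzyme takes long chains into the very long range, had ratios in N2 of -0.25, 0.23, -0.25, -0.33, -0.93 and 1.56, and in CO of 0.00, -0.26, -0.20, -0.35, -0.65 and 0.18. ELO2 was at its lowest at 120 min in both gases and at its highest at 24 h in both. ELO3, whose enzyme completes the longest chains carried by ceramide, had ratios in N2 of 0.19, 0.40, 0.37, 0.39, 0.31 and 2.54, and in CO of 0.13, -0.09, 0.02, -0.20, 0.55 and 1.11. At 24 h ELO3 stood at 5.82 times the signal in air in N2 (percentile 96.9 of the array) and at 2.16 times in CO (percentile 86.4). From 120 min to 24 h in N2 the ELO2 ratio differed by 2.49 and that of ELO3 by 2.23, at percentiles 98.1 and 97.3 of the steps of all ORFs, against 0.83 and 0.56 in CO, at percentiles 82.8 and 74.8.

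FAA1, the acyl-CoA synthetase that activates most imported long-chain fatty acids, was above air on 11 arrays. In N2 its log2 ratio was 0.08, -0.08, 1.35, 0.75, 1.67 and 1.74, and in CO 1.14, 0.19, 0.68, 0.35, 1.15 and 1.93. The early and late arrays differ here: at 15 min FAA1 was far up in CO (percentile 99.6 of the array) and near 0 in N2, while at 24 h the gases gave 3.81 times (CO) and 3.34 times (N2) the signal in air. FAA4, which encodes the related synthetase, cannot be set beside it.

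**Figure D1:**
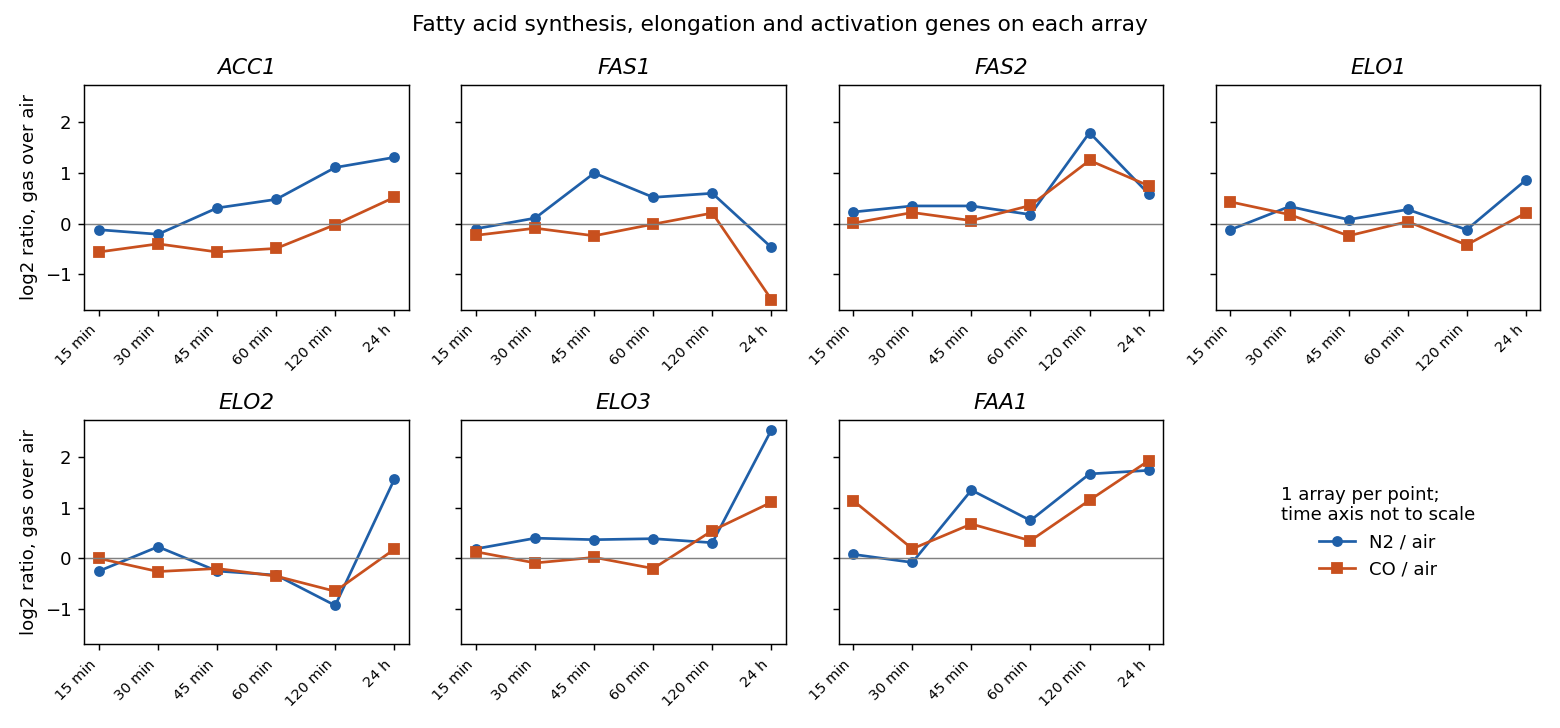
Log2 ratio of gas over air (vertical axis) for the 7 tested genes, 1 panel per gene, at 15, 30, 45, 60 and 120 min and 24 h (horizontal axis, not to scale), with N2 as blue circles and CO as orange squares. Each point is 1 array, so there are no error bars; the lines of ACC1 and FAS1 in CO lie below those in N2 at every time, and ELO2 and ELO3 turn up at 24 h most in N2.

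Averaged over the 6 times, 2 of the 7 genes were called higher than air in N2 and 1 in CO, and none lower. The background over all ORFs was 17.6% called higher and 20.2% called lower for N2; for CO it was 12.7% and 19.4%. Counts of 2 and 1 among 7 genes are close to that background. The FAA1 mean in N2 was 0.92 ± 0.26 log2 above air (SE, n = 6 arrays; limma adjusted p = 0.016). Its mean in CO was 0.91 ± 0.26 (adjusted p = 0.0191). FAS2 was higher by 0.58 ± 0.21 in N2 (adjusted p = 0.0414), and its mean in CO was 0.44 ± 0.21 (adjusted p = 0.116). The ELO3 mean in N2, 0.70 ± 0.27, and the ACC1 mean, 0.48 ± 0.21, missed the threshold (adjusted p = 0.052 and 0.078). ELO3 passed it in 5 of 20 alternatives, quantile normalization among them (limma adjusted p = 0.00935), and ACC1 in 4. The other means lay between -0.31 (FAS1 in CO) and 0.28 (FAS1 in N2, which passed in 2 of 20 alternatives). The median over the 7 genes was 0.48 in N2 and 0.03 in CO, beside -0.02 and -0.04 over all ORFs.

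None of these calls held in every setting. The FAS2 call in N2 was lost without the N2 array of 30 min (adjusted p = 0.0564), 45 min (0.0621), 120 min (0.152) or 24 h (0.0731), or without both arrays of 60 min (0.0625); without that of 120 min its mean was 0.34, and with the 15 min ratio subtracted it was 0.42 (0.212). The FAA1 call in N2 was lost without the N2 array of 45 min (adjusted p = 0.0509), 120 min (0.0604) or 24 h (0.0526), and in CO without the CO array of 120 min (0.0585) or 24 h (0.0661). With each gas's 15 min ratio subtracted, the FAA1 mean in CO turned to -0.28 (adjusted p = 0.508). With time as a block, which takes the spread between times out of the error, 4 genes were called in N2, ACC1 (adjusted p = 0.00306) and ELO3 (0.00171) being added, and 2 in CO, FAS2 (0.00312) being added; the block also raised the calls over all ORFs to 3337 in N2 and 3168 in CO.

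Whether CO, which binds haem proteins besides displacing oxygen, differs from N2 was asked by setting the arrays of the same time side by side. Every one of the 7 means of CO minus N2 was negative, with a median of -0.22 against -0.03 over all ORFs. The sign changed for FAA1 in 6, for ELO2 in 2 and for ELO1 in 1 of 12 alternatives. The share of all ORFs with a negative mean, or with CO below N2 at all 6 times, was not counted. None of the 7 genes passed the test. No ORF of the 5672 passed it either (0% higher, 0% lower; lowest limma adjusted p 0.0522), while 584 ORFs, 10.3%, had an unadjusted p under 0.05. ACC1 was lower in CO by -0.73 ± 0.15 log2 (SE; 95% interval -1.06 to -0.40; 6 of 6 times; adjusted p = 0.323), and FAS1 by -0.59 ± 0.17 (-0.97 to -0.21; 6 of 6 times; adjusted p = 0.374). In size these differences stood at percentiles 98.9 and 97.4 of all ORFs. ELO3 followed with -0.45 ± 0.20 (-0.89 to -0.01; adjusted p = 0.481). FAS2 gave -0.14 ± 0.14 (-0.45 to 0.16), ELO1 -0.19 ± 0.16 (-0.54 to 0.17), ELO2 -0.22 ± 0.21 (-0.69 to 0.26) and FAA1 -0.01 ± 0.22 (-0.50 to 0.47). The intervals of these 4 genes include 0, and that of ELO2 also includes the difference measured for FAS1.

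At single times a difference rests on 1 array per gas and has no replicate check. For ACC1, CO minus N2 was -0.44 at 15 min, -0.19 at 30 min, -0.87 at 45 min, -0.97 at 60 min, -1.13 at 120 min and -0.79 at 24 h, and N2 stood 2.19 times above CO at 120 min. For FAS1 it was -0.13, -0.20, -1.24, -0.53, -0.39 and -1.03, with N2 standing 2.36 times above CO at 45 min and 2.04 times at 24 h. The synthase partner FAS2 had differences of -0.22, -0.13, -0.29, 0.18, -0.55 and 0.16, above 0 at 60 min and 24 h where FAS1 lay below. Whether the subunits differed in this was not tested. After quantile normalization, which gives all arrays the same spread, the ACC1 difference was -1.05 at 15 min and -0.31 at 24 h, and that of FAS1 was -0.61 at 24 h; both genes stayed below 0 at all 6 times.

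As deposited, each elongase had its largest difference at 24 h. ELO3 gave -0.06, -0.49, -0.35, -0.59, 0.24 and -1.43, and ELO2 0.25, -0.49, 0.05, -0.02, 0.28 and -1.38, which put N2 at 2.69 and 2.60 times CO at 24 h. ELO1 gave 0.55, -0.16, -0.32, -0.24, -0.30 and -0.65. FAA1 gave 1.06, 0.27, -0.67, -0.40, -0.52 and 0.19, the first of which was at percentile 99.7 of all ORFs at 15 min. After quantile normalization no elongase had its largest difference at 24 h: ELO1 gave 1.20 at 15 min against -0.25, ELO2 -0.74 at 30 min against -0.63, and ELO3 -0.69 at 30 min against -0.61. The FAA1 difference at 15 min was then 2.10.

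Counted by time, CO lay below N2 in 4 of the 7 genes at 15 min, in 6 at 30, 45 and 60 min and in 5 at 120 min and 24 h. Over all ORFs the share below N2 was 52.8%, 50%, 49.5%, 52.5%, 51.6% and 54.6% at those times. A gap of at least 1 log2 between the gases, in either direction, was found for FAA1 at 15 min (0.701% of all ORFs), FAS1 at 45 min (4.73%), ACC1 at 120 min (4.78%) and FAS1, ELO2 and ELO3 at 24 h (16.4%). It was found for none of the 7 at 30 min (5.21%) or 60 min (4.63%). The median of the 7 differences went from -0.06 at 15 min to -0.79 at 24 h, where the median over all ORFs was -0.07 and their SD 0.741. Both patterns depended on the scale of the arrays. After quantile normalization the median of the 7 was -0.08 at 15 min, -0.43 at 45 min and -0.31 at 24 h. The genes at least 1 log2 apart were then ACC1, ELO1 and FAA1 at 15 min and FAS1 and ACC1 at 45 min, and none at the other times, 24 h included; the counts of genes below N2 were as before.

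**Figure D2:**
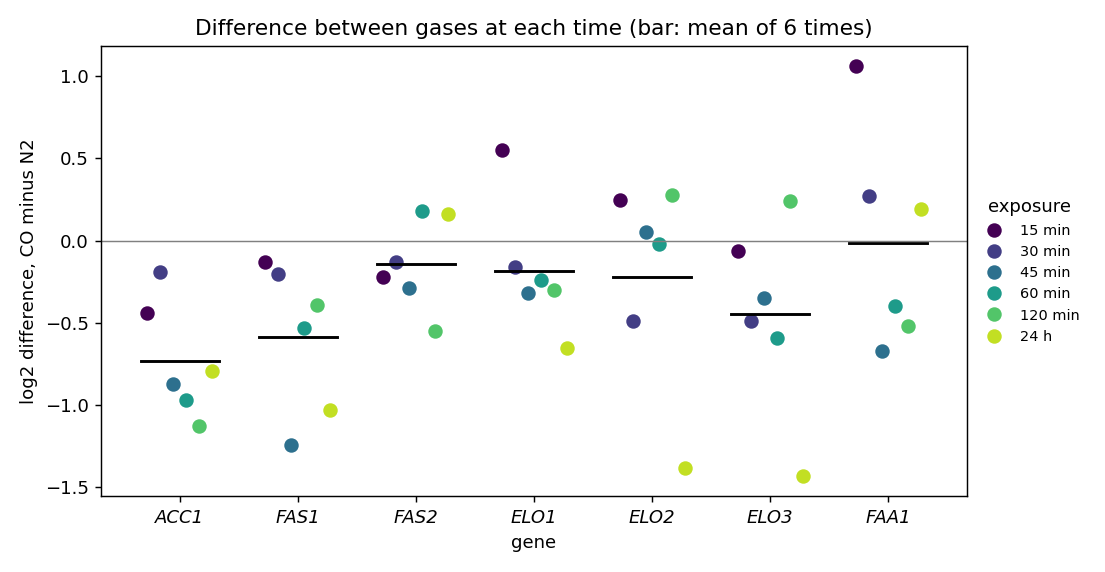
CO minus N2 in log2 ratio (vertical axis) for each of the 7 tested genes (horizontal axis), 1 dot per time coloured by time, with a bar at the mean of the 6 times. All dots of ACC1 and FAS1 lie below 0, the 24 h dots of ELO2 and ELO3 lie below -1, and the 15 min dot of FAA1 lies above 1.

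At 24 h against the mean of the earlier periods, ELO3, ELO2, FAA1 and ACC1 rose and FAS1 fell, which is 5 of the 7 genes. Over all ORFs 22.5% were called higher and 25.1% lower in this comparison. ELO3 rose by 1.62 ± 0.26 log2 (SE; 2 arrays of 24 h against 10 earlier, taken as independent although both gases share each time; limma adjusted p = 0.000412), ELO2 by 1.16 ± 0.29 (adjusted p = 0.00626), FAA1 by 1.06 ± 0.36 (adjusted p = 0.0288) and ACC1 by 0.97 ± 0.23 (adjusted p = 0.00435). FAS1 changed by -1.20 ± 0.22 (adjusted p = 0.00106), and FAS2, its partner, by 0.24 ± 0.34 (adjusted p = 0.586). ELO1 gave 0.51 ± 0.23 (adjusted p = 0.0814; 0.0413 after median centring). The median over the 7 genes was 0.97, and over all ORFs -0.06.

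The 24 h calls changed with the normalization, with the arrays left out and with the fit. After quantile normalization ELO3 stayed past the threshold with 0.76 (adjusted p = 0.0366), while FAS1 (-0.72, 0.0624), ACC1 (0.70, 0.0724), ELO2 (0.80, 0.0552) and FAA1 (0.09, 0.921) did not. Without the N2 array of 24 h ELO2 fell short with 0.46 (adjusted p = 0.241) and FAA1 with 1.18 (0.103), and ELO3 kept its call with 1.03 (0.0154); without the CO array of 24 h FAA1 fell short with 0.94 (0.176). FAA1 also fell short without both arrays of 30 min (0.0644), without the CO array of 45 min (0.069) and with array weights (0.215). Within CO alone ELO3 gave 1.04 (adjusted p = 0.0751) and FAS1 -1.40 (0.0168), and within N2 alone they gave 2.20 (0.00462) and -0.99 (0.0263); ACC1 (0.0611 in CO, 0.0517 in N2) and FAA1 (0.0973 and 0.118) passed in neither gas alone, and ELO2 passed in N2 (0.0133) and not in CO (0.269). With the gases averaged at each time, which leaves 2 residual degrees of freedom, ELO3 (0.00547), FAS1 (0.00929), ELO2 (0.016) and ACC1 (0.0326) kept their calls and FAA1 did not (0.0717).

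Of single arrays, N2 at 24 h placed 4 of the 7 genes at least 1 log2 above air (19.9% of all ORFs) and CO at 24 h placed 2 there (15.7%). At 120 min it was 3 genes in N2 (9.33% of all ORFs) and 2 in CO (10.2%). FAS1 in CO at 24 h was the only one of the 7 to lie at least 1 log2 below air on any array, and 21.6% of all ORFs lay that low on that array.

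Earlier in the course, 60 and 120 min were compared with 15 and 30 min, and none of the 7 genes passed the test. Over all ORFs 3.44% were called higher and 9.29% lower, and 1725 had an unadjusted p under 0.05; with the gases averaged at each time limma called none, and 1303 had an unadjusted p under 0.05. FAS2 gave 0.70 ± 0.30 (limma adjusted p = 0.146), FAA1 0.65 ± 0.32 (0.199), ACC1 0.59 ± 0.21 (0.0767) and FAS1 0.41 ± 0.20 (0.194). The elongases gave 0.11 ± 0.24 for ELO3 (0.79), -0.26 ± 0.20 for ELO1 (0.407) and -0.50 ± 0.26 for ELO2 (0.221). FAS2 passed without both arrays of 60 min (1.32, adjusted p = 0.00377) or the N2 array of 60 min (0.99, 0.0323), and ACC1 without both arrays of 60 min (0.87, 0.0235) or the CO array of 60 min (0.0418). ACC1 also passed after quantile normalization (0.90, 0.0488) and with array weights (0.60, 0.0392).

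Whether the gap between the gases at 24 h was unlike that of the 5 earlier times was tested in the same table, where 4.23% of ORFs passed in either direction and none of the 7 genes did. ELO2 came nearest, with a change in the gap of -1.39 ± 0.36 log2 (SE; limma adjusted p = 0.0609), and ELO3 followed with -1.18 ± 0.37 (adjusted p = 0.102). For FAS1 it was -0.53 ± 0.42 (adjusted p = 0.536), and for ACC1 -0.07 (adjusted p = 0.953).

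**Figure D3:**
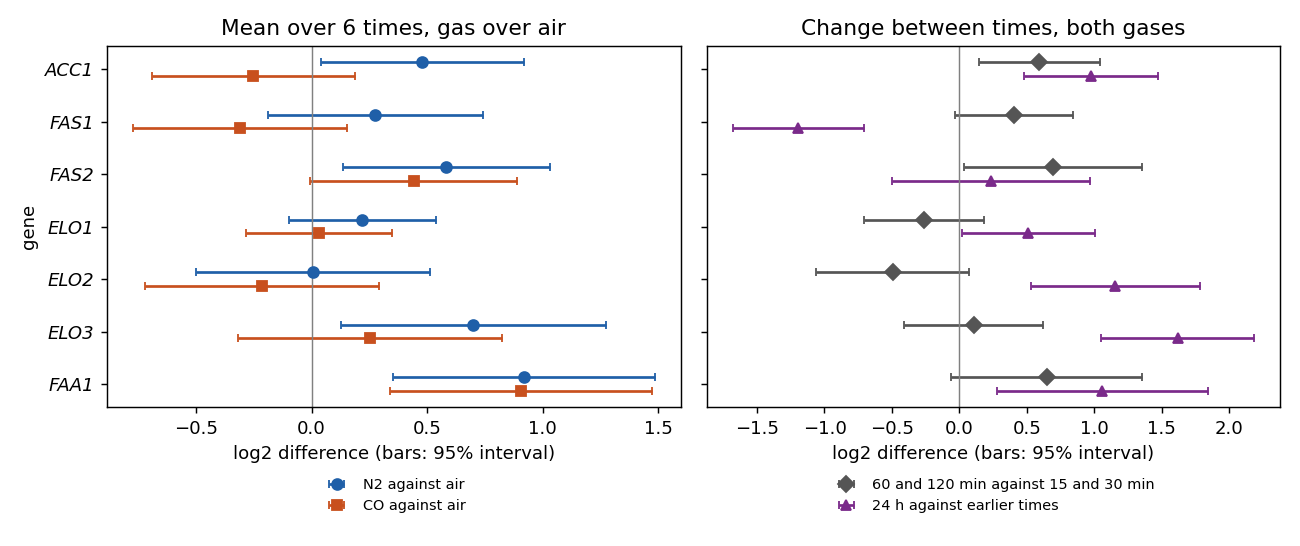
Fitted log2 differences with their 95% intervals (horizontal axis) for the 7 tested genes (vertical axis); on the left the mean ratio to air in N2 and in CO over 6 arrays each, on the right 60 and 120 min against 15 and 30 min and 24 h against the earlier times over both gases. In N2 the means of FAS2 and FAA1 passed the adjusted threshold and in CO that of FAA1; at 24 h ELO3, ELO2, FAA1 and ACC1 lie above 0 and FAS1 below.

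Across the 12 arrays the genes formed no single course. The ratio of ELO2 correlated with that of ELO1 at r = 0.83 and with that of ELO3 at r = 0.814, and ACC1 correlated with ELO3 at 0.745 and with FAA1 at 0.702. FAS1 correlated with FAS2 at 0.127, with ACC1 at 0.0323, with ELO3 at -0.376 and with ELO2 at -0.479. These values describe 12 arrays that share times, and they changed without the 24 h pair. Over the 10 earlier arrays FAS1 correlated with ACC1 at 0.804 and with FAS2 at 0.429, while ELO2 correlated with ELO1 at 0.647, with ELO3 at -0.166 and with ACC1 at -0.662. The ORFs whose ratios were most like each gene, by r over the 12 arrays, were SCM4 (0.956), MET28 (0.935) and PSY3 (0.928) for FAS1, and DIN7 (0.927), DON1 (0.911) and YPC1 (0.895) for FAS2. For ACC1 they were ESF1 (0.948), GSF2 (0.913) and ARG3 (0.895). For ELO1 they were HEM25 (0.879), TIM18 (0.868) and MRM1 (0.848), for ELO2 GAS1 (0.945), VNX1 (0.936) and EOS1 (0.934), and for ELO3 AIM20 (0.986), ECM18 (0.963) and EST1 (0.953). For FAA1 they were LSM7 (0.888), ATG17 (0.853) and CDC43 (0.848). None of the 7 genes was among the 3 closest partners of another. With each 3 taken from all tested ORFs with a symbol, this says little about how alike the 7 were.

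Genes that work beside these enzymes were counted in 10 further lists with 77 tested genes. In CO against N2 no gene of any list passed, and neither did any other ORF. Of the 77, 12 were higher and 15 lower in N2, 10 and 9 in CO, and 21 and 12 at 24 h; the shares called, 35.1%, 24.7% and 42.9%, lie beside the backgrounds of 17.6% higher and 20.2% lower, 12.7% and 19.4%, and 22.5% and 25.1% over all ORFs. At 60 and 120 min against 15 and 30 min, 3 of the 77 were higher and 6 lower (11.7%), beside 3.44% and 9.29% of all ORFs. Counts in the single lists are small and are to be read against these shares. Of the 3 partners that complete the elongation cycle, 1 was lower in N2 (20.2% of all ORFs) and none was called in CO. It was IFA38, for the ketoacyl reductase of the cycle, with log2 ratios in N2 of -0.07, -0.44, -0.64, -1.39, -0.85 and -0.39. Its mean in N2 was -0.63 ± 0.15 (limma adjusted p = 0.00671) and its mean in CO -0.21 (0.302). At 24 h IFA38 was below air in N2 (-0.39) and above it in CO (0.16). Its change at 24 h against earlier times was 0.35 (limma adjusted p = 0.192) and was not called. PHS1, another partner, was at 0.30 in N2 and -0.28 in CO at 24 h. TSC13, for the enoyl reductase of the cycle, changed by -0.66 at 24 h against earlier times (adjusted p = 0.0398), a call lost in 15 of 27 alternatives.

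Of 5 further genes for acyl-CoA synthetases and acyl-CoA binding, 1 was lower in N2, and in CO 1 was higher and 1 lower. FAT1, for a very long-chain acyl-CoA synthetase and fatty acid transporter, had a mean of -0.49 in N2 (limma adjusted p = 0.0128). Its mean in CO was -0.68 (0.00293), and both calls were lost once the 15 min ratio was subtracted (0.732 and 0.953). FAT1 was thus below air on average in both gases, where FAA1 was above. FAA2, for a medium-chain synthetase of the peroxisome, was the gene higher in CO (0.0471; lost in 11 of 20 alternatives). At 24 h 2 of the 5 rose, PCS60, for a peroxisomal protein related to these synthetases, by 2.20 ± 0.27 (adjusted p = 7.28e-05) and FAT1 by 0.54 (0.0203; lost in 7 of 27 alternatives).

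The mitochondrion has its own fatty acid synthesis, which makes the precursor of lipoic acid, and 9 of its 10 listed genes were tested. HFA1, for the mitochondrial acetyl-CoA carboxylase, had a mean of -0.69 ± 0.17 in N2 (limma adjusted p = 0.00714) and of -0.66 in CO (0.0108; 0.0578 without both arrays of 60 min). Its cytosolic counterpart ACC1 was not called in either gas, apart from some alternative settings. LIP5, for lipoic acid synthesis, was also lower, by -0.71 in N2 (0.00325) and by -0.47 in CO (0.0252; lost in 6 of 20 alternatives). CEM1, for the mitochondrial ketoacyl synthase, was higher by 0.46 in CO (0.00901) and by 0.37 in N2 (0.0222; lost in 7 of 20). ACP1, for the acyl carrier protein, was higher by 0.72 in CO (0.0418; lost in 10 of 20). That makes 1 gene higher and 2 lower in N2, and a pair each way in CO. At 24 h 4 of the 9 rose and none fell, beside 22.5% and 25.1% of all ORFs: OAR1 (1.30, adjusted p = 0.000129), MCT1, HTD2 and LIP2, the last 3 losing their calls after quantile normalization. At 60 and 120 min HFA1 and LIP5 were lower than at 15 and 30 min (adjusted p = 0.014 and 0.0303; lost in 8 and 12 of 28 alternatives).

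Acetyl-CoA and NADPH, which the synthase consumes, are supplied by the products of 9 listed genes. In N2 2 were higher, ZWF1 and GND2 (0.0441; lost in 11 of 20 alternatives), and 1 lower, ACS2; in CO 1 was higher, ZWF1, and 1 lower, ACS2. ZWF1, for the first enzyme of the pentose phosphate pathway, which forms NADPH, had a mean of 1.11 ± 0.24 in N2 (limma adjusted p = 0.00425) and 0.97 in CO (0.00953). ACS2, for the acetyl-CoA synthetase that serves the cytosol and nucleus, had a mean of -0.86 ± 0.20 in N2 (0.00508) and -0.81 in CO (0.00808). Subtracting the 15 min ratio ended these calls (ZWF1 0.0596 and 0.0761, ACS2 0.276 and 0.155). At 24 h ZWF1 rose by 1.22 (0.00171; 0.827 after quantile normalization), and 3 genes fell: MAE1, for the mitochondrial malic enzyme, changed by -2.59 (0.000134), GND1, for another NADPH-forming enzyme of the pentose phosphate pathway, by -1.75, and ACS1, for the other acetyl-CoA synthetase, by -1.50 (0.00196). At 60 and 120 min 1 gene was lower, ALD6 (0.0385; lost in 14 of 28 alternatives).

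Of the 4 genes for biotin and the modification of acyl carriers, VHT1, for the biotin transporter, was the 1 called in N2, with a mean of -0.67 (limma adjusted p = 0.0353; lost in 9 of 20 alternatives), and none was called in CO. VHT1 was also lower at 60 and 120 min than at 15 and 30 min, by -1.06 (0.00903), and at 24 h than earlier, by -0.84 (0.00568), calls lost in 6 of 28 and 5 of 27 alternatives. BIO5, for a transporter of biotin precursors, was the gene of the list whose gap between the gases at 24 h differed from the earlier gap (-1.55, 0.0382).

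OLE1, the desaturase gene, and its membrane-bound activators MGA2 and SPT23 formed the nearest list downstream; 2 of 3 were higher in N2 and none was called in CO. OLE1 had a mean of 1.49 ± 0.35 in N2 (limma adjusted p = 0.00616) and 0.84 in CO (0.0807). MGA2 was the other gene higher in N2 (0.63, 0.0397; lost in 10 of 20 alternatives). At 60 and 120 min OLE1 was 2.05 and MGA2 1.03 above 15 and 30 min (limma adjusted p = 0.00593 and 0.00951), beside 3.44% of all ORFs called higher. These calls were lost in 4 and 5 of 28 alternatives. ACC1, FAS1 and FAS2 were not called in that comparison, although ACC1 passed in 4 and FAS2 in 2 of 28 alternatives. Whether they differed from OLE1 and MGA2 was not tested. At 24 h MGA2 rose by 0.79 (0.0078; lost in 6 of 27) and SPT23 changed by -1.25 (0.000396; 0.0668 after quantile normalization).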

How the data were processed

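RNA of BY4741 cells was hybridised to 2-colour arrays (gas in Cy5, air in Cy3). The values were used as deposited: 1 log2 ratio per ORF and array, calculated by the authors and given to 2 decimals. No source used here gives the log base, direction, background correction, centring or probes, or says whether the gases shared an air reference. ORFs were named through the R64 annotation (5651 of 6150 matched).

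The 5672 ORFs with a value on all 12 arrays entered lmFit and eBayes (limma 3.58.1, R 4.3.3), with Benjamini-Hochberg adjustment over all of them and a threshold of 0.05. N2 and CO against air used group means (10 residual degrees of freedom), CO against N2 had time as a block (5), both comparisons of times had period and gas (7; 24 h against the equal-weight mean of 15 and 30, 45, and 60 and 120 min), and the change of the gap between gases had 4. Pairing by time comes from the labels; deviations of same-time arrays correlated at r of 0.255 to 0.776, although the CO arrays of 30 and 45 min correlated better with N2 at 15 min (0.571 and 0.385). A constant dye effect cancels between arrays and not in ratios to air.

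All 8 members are described, and from each list up to 4 called genes with the largest absolute mean over the arrays; GND1, GND2, ALD6, OAR1, MCT1, HTD2, LIP2, TGL4, SLC1, GPT2, FOX2, LAG1, SUR2, IPT1, SUR1, LIP1, PSD1, INO4, EKI1, INO2 and HNM1 were named after their values were seen, to complete counts. Members and lists were chosen with earlier results of these data known. The fit was run on simulated data with independent noise and an added shift. Those data held no trend in time and no spread that grows with time, so how the fit handles these was not tested. Alternatives were median centring, quantile normalization, a minimum of 10 arrays, array weights, robust variance, leaving out arrays, the time block, 1 gas alone, subtraction of the 15 min ratio and, added after seeing the data, time as a random block or averaged over gases in the comparisons of times.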

Additional observations from a re-analysis of the deposited data

Results flagged for a closer look

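Each of the 7 genes was screened within the 6 arrays of each gas, 14 groups in all. An array was marked when its gap to its nearest neighbour, over the range, exceeded Dixon's 95% critical value. That value marks about 5% of groups by chance only when all 6 arrays have the same spread. Here the SD over all ORFs rose from 0.357 (CO) and 0.374 (N2) at 15 min to 1.2 and 1.27 at 24 h. The 5% is therefore no measure of chance here, and the share of all ORFs marked was not computed. In 3 groups an array stood out. FAS1 in CO at 24 h, at -1.50, lay far below the next value of -0.24 (gap over range 0.737). FAS2 in N2 at 120 min, at 1.80, lay far above the next of 0.59 (0.747). ELO3 in N2 at 24 h, at 2.54, lay far above the next of 0.40 (0.911). Each is 1 array of a time that was not repeated.

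The gap between CO and N2 at 24 h differed from that of the 5 earlier times for 4 of the 77 tested genes of the neighbouring lists, 5.19%, close to the 4.23% of all ORFs (limma, test of the change of the gap). It was -1.55 for BIO5 (adjusted p = 0.0382), -2.62 for HNM1, the choline transporter gene (0.0369), -1.56 for IPT1, for the last step of complex sphingolipid synthesis (0.0477), and 1.87 for TGL3 (0.0253). Each 24 h gap rests on 1 array per gas.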

How the results depend on the processing

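For the 7 genes in 5 comparisons 749 alternative values were computed, of which 667 kept direction and side of the threshold, 36 fell short of it, 20 passed it and 26 changed sign; the cause was not tested. The number of genes called in N2 against air, 2 at first, was 4 with array weights, 4 with time as a replicate block, 1 with N2 arrays alone and 0 to 4 when arrays were left out. In CO, 1 at first, it was 2 with array weights, which added ACC1 as lower than air (-0.44, limma adjusted p = 0.0233). The number in CO was also 2 with the replicate block, 0 with the 15 min ratio subtracted and 0 to 1 when arrays were left out. At 24 h, 5 at first, it was 6 after median centring, which added ELO1, 1 after quantile normalization, 3 with N2 alone, 1 with CO alone and 3 to 5 when arrays were left out. For 60 and 120 min, 0 at first, it was 1 after quantile normalization, 1 with array weights and 0 to 2 when arrays were left out. In the comparisons of times, alternatives chosen after seeing the data gave 5 and 0 with time as a random replicate block (consensus correlation 0.0231) and 4 and 0 with the gases averaged at each time. In CO against N2 the number of genes called stayed 0 in every alternative, also with no replicate block. At most 1 of all ORFs passed in any of those 12 alternatives, so this 0 says little about the 7 genes. Calls over all ORFs moved with the setting too. They ran over the alternatives from 1030 to 3337 in N2 (2147 at first) and from 1042 to 3168 in CO (1818). At 24 h they ran from 727 to 2883 (2703), and for 60 and 120 min from 0 to 1377 (722).

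Means that changed sign were small or lost their call. ELO2 in N2 was -0.15 after quantile normalization, -0.19 with array weights and -0.31 to 0.19 when arrays were left out. With the 15 min ratio subtracted ACC1, ELO1 and FAA1 in CO were 0.37, -0.48 and -0.28, and ELO1 ran from -0.046 to 0.12 when arrays were left out. FAA1 in CO against N2 was 0.015 after median centring, 0.21 after quantile normalization, 0.24 with array weights and -0.23 to 0.12 when times were left out; with array weights ELO1 was 0.043 and ELO2 0.0044, and ELO2 ran from -0.32 to 0.014 when times were left out. After quantile normalization FAS2 at 24 h was -0.056 and ELO3 at 60 and 120 min -0.022, the latter running from -0.087 to 0.27 when arrays were left out.

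No source used here gives signal over background, so the precision of a single value is unknown beyond the number of arrays. The 15 min ratios, which subtraction treats as a starting offset, already differed between the gases for FAA1 (1.06) and ELO1 (0.55).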

Other observations

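The lipids that take up the products of these enzymes were also counted. Each count is to be read beside the shares of all ORFs: 17.6% higher and 20.2% lower in N2, 12.7% and 19.4% in CO, and 22.5% and 25.1% at 24 h. Among 12 tested genes of the INO2-INO4 circuit and phospholipid synthesis, N2 arrays had 4 above air (CHO1, ITR1, PSD1, INO4) and 3 below (INO1, EKI1, INO2), and CO arrays the same 4 above and INO1 and EKI1 below. CHO1, for phosphatidylserine synthase, had a mean of 1.66 ± 0.18 log2 in N2 (limma adjusted p = 0.000274) and 1.20 in CO (0.000769). ITR1, for an inositol transporter, had a mean of 1.19 in N2 (0.00165) and 0.93 in CO (0.00628; 0.073 with the 15 min ratio subtracted). INO1, for inositol phosphate synthase, had means of -1.28 (0.00504) and -1.72 (0.00126), and both calls ended when the 15 min ratio was subtracted (0.687 and 0.206). At 24 h 6 of the 12 rose and none fell, OPI3, for a methyltransferase of phosphatidylcholine synthesis, by 2.47 (0.000318; lost in 2 of 27 alternatives). The gap between gases at 24 h differed from the earlier gap for HNM1 (-2.62, 0.0369).

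Ceramide synthesis takes the very long chains made by Elo2 and Elo3. Of 12 tested genes 1 was higher in N2 (SUR2) and 3 lower (LCB1, LCB2, LAG1), the calls of SUR2 (0.0447) and LAG1 (0.0362) each being lost in 11 of 20 alternatives, and in CO LCB1 and LCB2 were lower and none higher. LCB1 and LCB2, for the serine palmitoyltransferase that opens the pathway, had means of -0.96 ± 0.18 (limma adjusted p = 0.00187) and -0.83 ± 0.16 (0.00239) in N2, and of -1.09 (0.00111) and -0.67 (0.00766) in CO. At 24 h 3 rose (SCS7, AUR1 and IPT1, the last lost in 7 of 27) and 2 fell (SUR1, LIP1); SCS7, for the hydroxylase of the very long chain, rose by 1.62 (0.00017; 0.0632 after quantile normalization), and AUR1, for inositol phosphorylceramide synthase, by 1.29 (0.000345; 0.124 after quantile normalization).

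In storage lipid synthesis and lipolysis ARE2 was higher and TGL3 lower in each gas, out of 11 genes. ARE2, for a sterol acyltransferase, had means of 1.11 in N2 (limma adjusted p = 0.0184; lost in 4 of 20 alternatives) and 1.03 in CO (0.0292; lost in 6). TGL3, for a lipase, had a mean of -0.52 in both (0.0318 and 0.0351; lost in 8 and 13). At 24 h 4 rose (SLC1, GPT2, SCT1, PAH1) and 1 fell (TGL4, -0.47, 0.0457; lost in 18 of 27); SCT1, for a glycerol phosphate acyltransferase, rose by 1.68 (0.000113; 0.0513 after quantile normalization) and PAH1, for phosphatidate phosphatase, by 1.51 (0.000331; 0.098).

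In beta-oxidation SPS19, for dienoyl-CoA reductase, was the 1 of 9 genes higher in N2 (1.17, limma adjusted p = 0.000365) and in CO (1.06, 0.000711), and both calls ended with the 15 min ratio subtracted (0.0635 and 0.172). PXA1 and PXA2, for the peroxisomal acyl-CoA transporter, were lower in N2 (-1.21, 0.0118, with 0.0547 when 120 min was left out, and -0.36, 0.036, the latter lost in 13 of 20 alternatives). At 24 h 3 genes fell, PXA1 changing by -1.62 (0.0022; lost in 2 of 27), PEX11, for a peroxisomal membrane protein, by -1.57 (0.00222) and FOX2 by -0.89 (0.0353; lost in 9 of 27).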
